A study of Mus musculus with 2 samples.

Results

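The nuclear-encoded subunits of the oxidative phosphorylation system were followed across the cell classes of the mouse cortex at E16.5. Members were all features whose symbol began with Nduf and a, b, c, s or v before a number, with Uqcr, with Cox4 to Cox8 or with Atp5, and Sdha, Sdhb, Sdhc and Sdhd, without symbols ending in -ps. The rule found 84 genes among 32285 features, of which 35 encode complex I subunits, 4 complex II, 8 complex III, 20 complex IV and 17 complex V. Ndufa4 and its paralog Ndufa4l2 carry complex I names and were counted here with complex IV, where the NDUFA4 protein resides. A UMI was found for 83 members in the cells kept.

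Single-cell 3′ libraries had been made from the dorsal telencephalon of 2 embryo samples labeled WT, WT replicate 1 and WT replicate 6, collected at E16.5 in a series on conditional deletion of Dot1l with the Emx1-Cre line. The embryos were of the C57BL6/J strain by the data statement of the study. The alleles that the WT embryos carried and whether they shared a litter are not given in the labels, and the knockout was not analysed here. With 2 libraries labeled as separate samples, p-values measure only the spread between these 2 libraries.

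Oxidative phosphorylation couples electron transport to ATP synthesis in the inner mitochondrial membrane. Complexes I and II take electrons from NADH and succinate, complex III passes them to cytochrome c, complex IV reduces oxygen, and the proton gradient built by complexes I, III and IV drives the ATP synthase, complex V. Most subunits are encoded in the nucleus, and a small core is transcribed from mitochondrial DNA. Some complex IV subunits exist as paralogs used in different tissues, among them COX4I2 and NDUFA4L2, which are known as hypoxia-responsive forms, and the heart and muscle forms COX6A2, COX7A1 and COX8B. Neural stem cells are known to rely on glycolysis more than neurons do. The stem cells of the developing cortex are radial glial cells (RGCs), whose daughters include intermediate progenitor cells (IPCs).

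The libraries held 14136 and 13046 cells with 74930397 and 68964234 UMIs, and 59 cell barcodes occurred in both. After removal of cells outside 1500 to 60000 UMIs or with 10% or more mitochondrial UMIs, 8139 and 8209 cells were left, of which 4389 and 4743 were placed in 1 of 11 classes by marker genes. No class had markers of another class among its 10 genes of highest fold over the other classes. This check was partly set in advance, since the same markers had placed the cells. In the OPC class, RGC markers summed to 6802 CPM beside 5603 CPM for OPC markers. Pf4 and Mrc1, genes of border macrophages, stood among the 10 leading genes of the microglia class. Ttr, a choroid plexus gene, led the RGC class through 4 cells of WT replicate 1 (11682 Ttr UMIs there, 13 in WT replicate 6), so every RGC comparison was also computed without cells of 20 or more Ttr UMIs.

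The summed level of the 84 genes spanned a wider range between classes than between the libraries of any class. Levels are given as CPM, counts per 1000000 UMIs of the class. Fibroblasts stood highest, at 28287 CPM in WT replicate 1 and 26012 CPM in WT replicate 6, and mural cells (pericytes and smooth muscle cells of vessels) followed at 25677 and 23690 CPM. RGCs stood at 21571 and 20146 CPM. Excitatory neurons stood at 18527 and 16181 CPM and GABAergic neurons at 17035 and 14386 CPM, below every other class but erythroid cells. Both neuron classes lay under all 4 RGC and IPC values, and mural cells and fibroblasts lay above them.

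Between these ends the order was less certain. Cajal-Retzius cells (22710 ± 369 CPM, SD, n = 2 libraries) overlapped IPCs (22364 ± 1297 CPM), IPCs overlapped RGCs (20858 ± 1008 CPM), and RGCs overlapped endothelial cells (20762 ± 1779 CPM), which overlapped oligodendrocyte precursor cells (OPCs, 20634 ± 1714 CPM). Excitatory and GABAergic neurons overlapped as well. Microglia (19175 ± 191 CPM) stood between OPCs and excitatory neurons without overlap. Erythroid cells stood at 3867 ± 508 CPM, where hemoglobin genes took 83.9% of UMIs, and at 25762 CPM once mitochondrial and hemoglobin genes were left out of the total. WT replicate 1 had the higher summed level in all 11 classes.

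**Figure D1:**
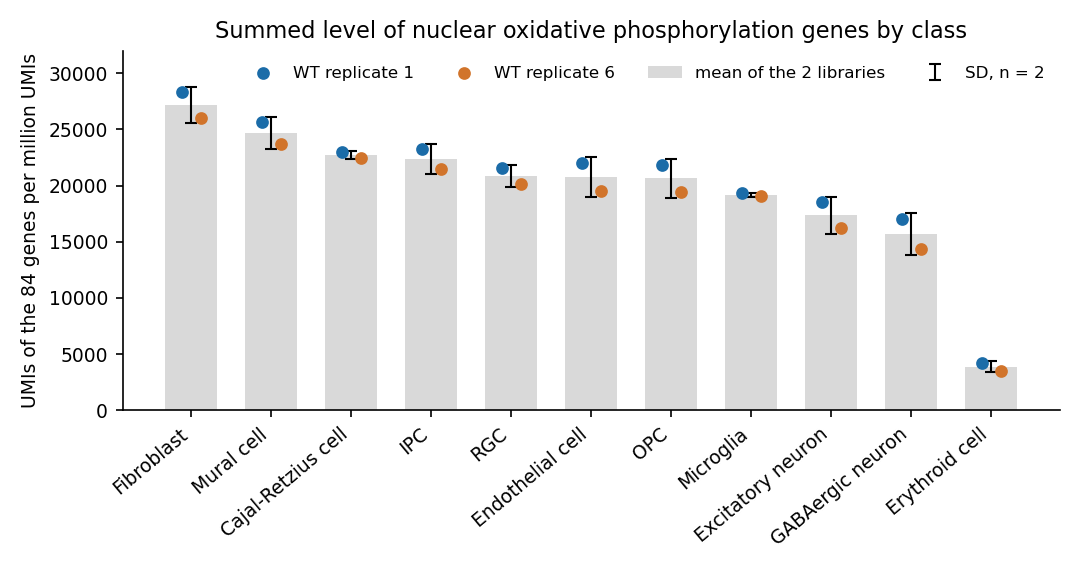
Summed level of the 84 genes in CPM of the class (y axis) for each class (x axis), with the mean of the 2 libraries as bars, the SD as error bars and each library as a point. Fibroblasts and mural cells lie above RGCs and IPCs, both neuron classes below them, and WT replicate 1 lies above WT replicate 6 in all 11 classes.

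The ratio to RGCs differed between complexes within some classes. Relative to RGCs of the same library, complex III stood at 1.33 and 1.26 in mural cells and complex IV at 1.32 and 1.35, whereas complex I stood at 1.09 and 1.05 and complex II at 1.05 and 1.01. In microglia complex I stood at 0.811 and 0.848 and complex IV at 0.982 and 1.04. In Cajal-Retzius cells complex I stood at 1.103 and 1.18 and complex IV at 1.16 and 1.19, beside 0.975 and 1.03 for complex V. In excitatory neurons the ratios of all complexes lay between 0.714 and 0.906, with complex II lowest in both libraries. These ratios have no test of their own.

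The subunits transcribed from mitochondrial DNA stood on the other side of RGCs from the nuclear genes in excitatory and GABAergic neurons. Their summed level relative to RGCs was 1.13 and 1.25 in excitatory neurons and 1.15 and 1.35 in GABAergic neurons, where the nuclear genes stood at 0.859 and 0.803 and at 0.790 and 0.714. In mural cells both genomes stood above RGCs, at 1.31 and 1.56 for mitochondrial transcripts and 1.19 and 1.18 for nuclear ones. Cytosolic ribosomal protein genes, which are also short nuclear transcripts, stood at 0.779 and 0.743 in excitatory neurons and at 0.978 and 1.03 in mural cells. In Cajal-Retzius cells they stood at 0.639 and 0.645, while the nuclear subunit genes stood at 1.06 and 1.11 and the mitochondrial transcripts at 1.19 and 1.09. The nuclear subunit genes stood on the same side of RGCs as ribosomal protein genes in excitatory and GABAergic neurons and on the other side in Cajal-Retzius cells. The share of mitochondrial UMIs also takes in cell damage and cytoplasm kept in dissociation, whose part was not tested.

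**Figure D2:**
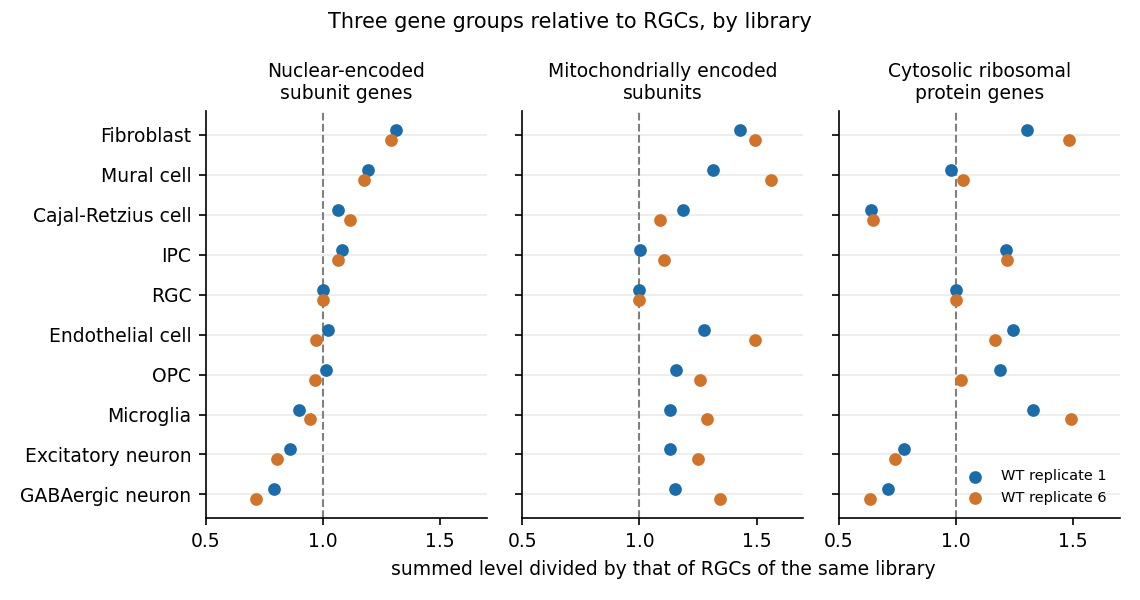
Summed level divided by that of RGCs of the same library (x axis) in 10 classes (y axis), for the 84 nuclear genes, the mitochondrially encoded subunits and cytosolic ribosomal protein genes, with 1 point per library and a dashed line at 1. Both neuron classes lie left of the line for nuclear genes and right of it for mitochondrial transcripts.

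For comparisons between classes, UMIs were summed per class and library and tested over all genes with edgeR, after TMM scaling of the library sizes, at a Benjamini-Hochberg adjusted p under 0.05. A log2 difference is given with its SE. The 5 classes with RGCs as the reference share the same RGC sums.

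Mural cells against RGCs gave the largest single differences, in the paralogs of complex IV. Ndufa4l2 stood at 830 and 878 CPM in mural cells and at 1.19 and 1.28 CPM in RGCs. Ndufa4, its widely used paralog, stood at 243 and 209 CPM in mural cells and at 598 and 574 CPM in RGCs. Ndufa4 was lower by a log2 difference of -1.28 ± 0.14 (adjusted p = 3.94e-05). Ndufa4l2 had 1865 UMIs in mural cells and 10 in RGCs of both libraries, a ratio of 689 (95% exact interval 374 to 1440). It passed the filter on low counts only through mural cells, so this ratio is given as a description. Of all UMIs of the pair, Ndufa4l2 took 77.4% (95% Wilson interval 75.03 to 79.6) and 80.8% (78.3 to 83.0) in mural cells, and 0.199% (0.085 to 0.464) and 0.223% (0.095 to 0.521) in RGCs. These intervals, and all others here, cover counting error only.

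At least 1 Ndufa4l2 UMI was found in 94.7% and 92.5% of mural cells (median depths 8812 and 8421 UMIs) and in 0.44% and 0.54% of excitatory neurons (9010 and 8082 UMIs), a class that should lack the gene and so shows the background. Ndufa4 was found in 80.5% and 65.1% of mural cells and in 92.8% and 91.4% of excitatory neurons. Outside mural and erythroid cells the lowest Ndufa4 value was 370 CPM, in GABAergic neurons of WT replicate 6.

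Cox4i2, the hypoxia-responsive form of subunit IV, stood at 232 and 279 CPM in mural cells and at 6.91 and 7.44 CPM in RGCs (log2 difference 5.23 ± 0.17, adjusted p = 6.25e-09). Unlike Ndufa4, its common paralog Cox4i1 did not fall. Cox4i1 stood at 1250 and 1405 CPM in mural cells and at 931 and 992 CPM in RGCs, higher by 0.56 ± 0.13 (adjusted p = 0.00569). Cox4i2 took 15.6% (14.0 to 17.4) and 16.6% (14.9 to 18.5) of the UMIs of the COX4 pair in mural cells. The muscle form Cox7a1 had 18 UMIs in mural cells and 5 in RGCs, a ratio of 13.3 (95% exact interval 4.76 to 45.8), and it too passed the filter only through mural cells. Its common paralog Cox7a2 stood at 470 and 410 CPM in mural cells and at 426 and 349 CPM in RGCs, which did not pass the test.

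**Figure D3:**
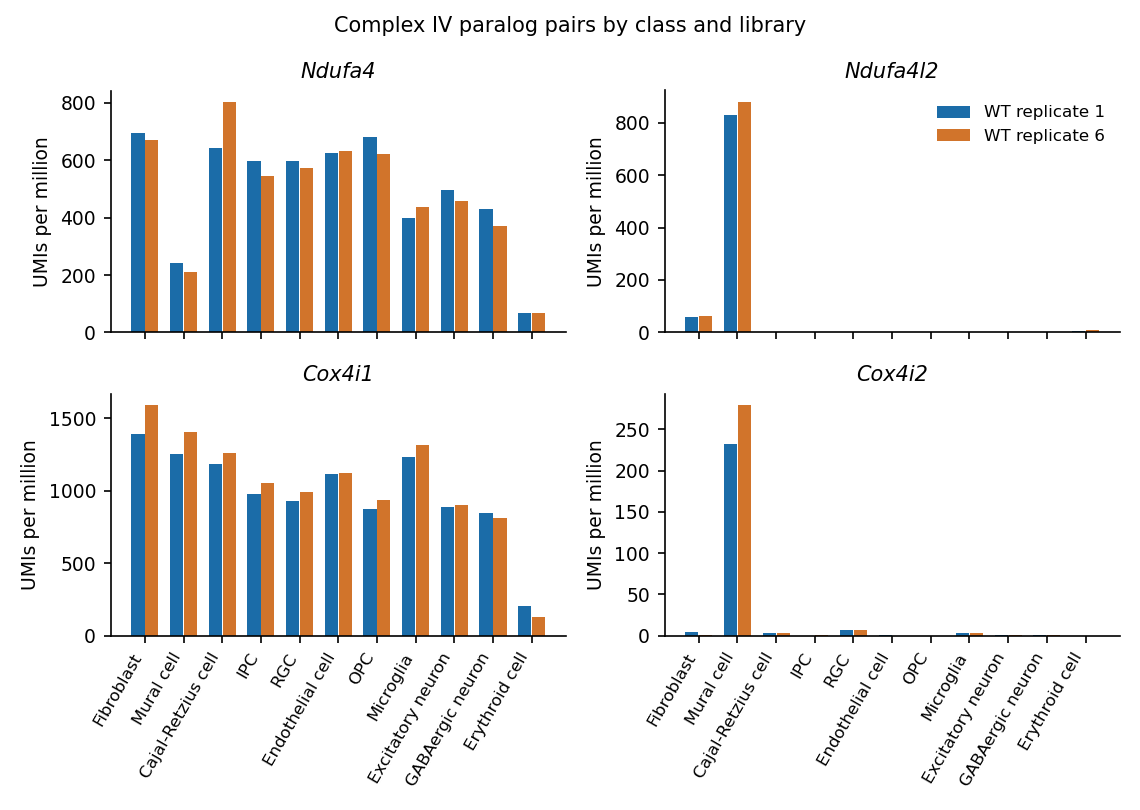
Level in CPM of the class (y axis) of Ndufa4, Ndufa4l2, Cox4i1 and Cox4i2 in each class (x axis), with 1 bar per library. Ndufa4l2 and Cox4i2 stand out in mural cells, where Ndufa4 is low and Cox4i1 is not.

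Over the whole module in mural cells, of 80 members tested, 24 were higher, beside 22.1% of all genes tested, and 3 were lower, beside 21.6%. The 24 include Ndufa4l2 and Cox7a1. The higher ones were 8 of 35 in complex I, 1 of 4 in complex II, 3 of 8 in complex III, 6 of 16 in complex IV and 6 of 17 in complex V, and the median over members was 0.28 beside -0.01 over all genes. Most of the tested members, 70 of 80, had a log2 difference above 0. Cox8a, the common form of subunit VIII, stood at 1111 and 988 CPM in mural cells and at 614 and 581 CPM in RGCs (log2 difference 0.91 ± 0.13, adjusted p = 0.000337). The members that were lower, besides Ndufa4, were the complex I accessory subunits Ndufc2 (-0.82 ± 0.15, adjusted p = 0.00157) and Ndufa12 (-0.46 ± 0.13, adjusted p = 0.0147).

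Scrublet, which scores droplets for likeness to 2 cells mixed, marked 33 of 113 and 26 of 106 mural cells, and markers of endothelial cells summed to 462 CPM and of fibroblasts to 430 CPM there, beside 9302 CPM for mural markers. Without the marked cells, 46 members were called higher, beside 22.8% of all genes, and 3 lower, beside 24.0%, and the summed level of mural cells was 27521 CPM.

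The genome windows before the start sites of the members lower in mural cells, and of Cox8a as a member that was higher, are printed here so that these promoters can be read side by side. RefSeq windows of build GRCm38.p6, the assembly of mm10, were matched for 68 of 84 members (73 windows), and 16 members had none (among them Atp5a1, Atp5mpl, Cox4i1, Cox4i2, Cox6a2, Cox6c, Cox8c, Ndufa2, Ndufa4l2, Ndufb9, Ndufs1, Sdhc, Uqcrb, Uqcrc2 and Uqcrq). Each line gives the 250 bases before the start site on the gene's strand, 5′ to 3′, with capitals for matches to any of 5 short motifs on either strand.
Ndufa4 (chr6:11907451-11907700, minus strand): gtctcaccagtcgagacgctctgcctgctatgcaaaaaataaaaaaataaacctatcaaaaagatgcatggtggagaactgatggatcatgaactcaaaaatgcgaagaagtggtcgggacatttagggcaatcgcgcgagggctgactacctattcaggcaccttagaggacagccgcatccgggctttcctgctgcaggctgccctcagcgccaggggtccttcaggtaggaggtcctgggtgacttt
Ndufc2 (chr7:97399753-97400002, plus strand): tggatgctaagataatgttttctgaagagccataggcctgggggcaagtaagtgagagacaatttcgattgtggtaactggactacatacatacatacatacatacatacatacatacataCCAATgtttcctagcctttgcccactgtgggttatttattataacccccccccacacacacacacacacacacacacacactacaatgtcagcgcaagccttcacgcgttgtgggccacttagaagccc
Ndufa12 (chr10:94198785-94199034, plus strand): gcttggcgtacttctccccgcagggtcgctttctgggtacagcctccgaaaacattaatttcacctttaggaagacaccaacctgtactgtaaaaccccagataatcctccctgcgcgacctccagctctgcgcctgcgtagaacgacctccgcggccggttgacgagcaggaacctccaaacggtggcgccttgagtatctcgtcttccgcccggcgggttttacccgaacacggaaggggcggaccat
Cox8a (chr19:7217617-7217866, minus strand): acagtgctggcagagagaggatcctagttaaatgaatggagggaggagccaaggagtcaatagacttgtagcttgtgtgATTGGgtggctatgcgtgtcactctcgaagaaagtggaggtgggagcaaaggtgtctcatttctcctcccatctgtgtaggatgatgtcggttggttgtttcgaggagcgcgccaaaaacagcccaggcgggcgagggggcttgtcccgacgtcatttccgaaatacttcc

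The motifs searched were GCATGCG for the core of the NRF1 site, CCGGAAG for ETS factors such as GABPA, AAGATGG for YY1, ACGTG for the hypoxia response core and CCAAT, with no overlap between the matches printed. The NRF1 core was found in 12.3% of the 73 member windows and in 3.02% of 32851 windows of all genes, and the ETS letters in 16.4% and 6.91%. The hypoxia core was found in 20.5% and 16.6%, CCAAT in 42.5% and 33.8%, and the YY1 letters in 1.37% and 4.49%. Ndufc2 and Cox8a held 1 CCAAT match each, and Ndufa4 and Ndufa12 held none of these letters in the window. The windows of all genes were not matched to those of the members in base composition, gene type or expression, whose part was not tested. A match is a string of letters and was not tested as a site.

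Fibroblasts shared the paralogs of mural cells only in part, as levels without a test. Ndufa4l2 stood at 59.2 and 63.1 CPM there and Ndufa4 at 695 and 671 CPM, so that Ndufa4l2 took 7.84% (6.48 to 9.46) and 8.60% (6.998 to 10.5) of the pair. Cox4i2 stood at 4.23 and 0.751 CPM. Mural markers summed to 1065 CPM in the fibroblast class, beside 9302 CPM in mural cells, and their part in the Ndufa4l2 level was not tested. Cox6b2, described as a testis form of subunit VIb, stood at 70.6 and 49.6 CPM in fibroblasts, above all other classes in both libraries, and took 10.1% (8.45 to 11.9) and 8.53% (6.76 to 10.7) of the COX6B pair. Of the 84 members, 41 had their highest mean level in fibroblasts, 16 in Cajal-Retzius cells and 10 in IPCs when erythroid cells were left out. The same counts over all genes were not made, so these are not read as particular to the members.

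A low level of some of these paralogs was found in RGCs. Cox4i2 had 29 UMIs in each library's RGCs, in 25 of 421 and 26 of 414 cells, and 1 UMI in all IPCs, at 0 and 0.638 CPM. The ratio of RGCs to IPCs was 21.7 (95% exact interval 3.75 to 872, on 58 and 1 UMIs). Excitatory neurons held 0.317 and 0.260 CPM. Endothelial cells held 1 UMI, with a ratio of RGCs to endothelial cells of 14.5 (2.50 to 581). In each of these comparisons Cox4i2 passed the filter on low counts only through RGCs, so its differences are given as a description. Mural markers summed to 95.04 CPM in RGCs, and Ndufa4l2 stood at 1.19 and 1.28 CPM there. The part of mural transcripts in the Cox4i2 level of RGCs was not tested. Cox6b2 stood at 12.9 and 7.70 CPM in RGCs and at 1.22 and 0.606 CPM in excitatory neurons. It too passed the filter there only through RGCs, and these levels are a description. In IPCs it stood at 4.11 and 5.10 CPM and in endothelial cells at 3.89 and 7.07 CPM, and neither difference from RGCs passed the test.

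Excitatory neurons against RGCs differed in complex II and in scattered subunits. Of 80 members tested, 6 were higher, beside 32.3% of all genes, and 17 lower, beside 32.6%. Both shares lay below those of all genes, and the median was -0.03 beside 0.03. The 17 include Cox4i2 and Cox6b2, which passed the filter on low counts only through RGCs. Without TMM scaling, which moved the median of all genes by 0.19 in this comparison, 0 were higher (25.3% of all genes) and 30 lower (39.3%). The median over members was then -0.22 beside -0.155 for all genes. More members were lower than higher under both scalings, and the size of the shift and the counts depended on the scaling. With the library as a block, 10 were higher (34.4%) and 27 lower (34.6%).

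Complex II, which also belongs to the citric acid cycle, had 3 of its 4 genes lower, beside 32.6% of all genes. Sdha, the flavoprotein that oxidizes succinate, stood at 55.8 and 59.4 CPM in excitatory neurons and at 106 and 96.8 CPM in RGCs (-0.63 ± 0.08, adjusted p = 0.00024). The membrane anchors Sdhc (-0.46 ± 0.07, adjusted p = 0.00095) and Sdhd (-0.56 ± 0.09, adjusted p = 0.0014) were lower too. The iron-sulfur subunit Sdhb stood at 136 and 132 CPM in neurons and at 135 and 148 CPM in RGCs and did not pass the test. Under library size alone the same 3 were lower.

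Among the other members, Ndufc2 stood at 280 and 286 CPM in excitatory neurons and at 484 and 614 CPM in RGCs (-0.77 ± 0.11, adjusted p = 0.00043). Atp5g2, a gene for subunit c of the ATP synthase rotor, stood at 326 and 338 CPM and at 563 and 642 CPM (-0.67 ± 0.09, adjusted p = 0.000245). The groups did not overlap for either gene. The 4 members furthest up were the complex I subunits Ndufa8 (0.35 ± 0.09), Ndufb10 (0.31 ± 0.08) and Ndufb9 (0.31 ± 0.09) and the complex IV subunit Cox5a (0.32 ± 0.09), with adjusted p between 0.00891 and 0.0143. Ndufa8 values overlapped, and none of these 4 passed the test without TMM scaling.

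IPCs, the transit-amplifying daughters of RGCs, differed from RGCs in few members without a block, and in more with the library as a block. Of 78 members tested, 9 were higher, beside 15.7% of all genes, and 1 was lower, beside 19.0%, and 64 of the 78 log2 differences lay above 0 with a median of 0.14 beside -0.00 for all genes. At 11.5%, the share called higher lay below that of all genes in this fit. The member called lower was Cox4i2, which passed the filter on low counts only through RGCs. With the library as a block 31 were higher (39.7%, beside 19.6% of all genes) and 4 lower (5.13%, beside 22.1%). The share called higher then lay above that of all genes. Without TMM scaling 6 were higher (7.69%, beside 13.0% of all genes) and 3 lower (3.85%, beside 21.3%). Cox7a2l, a subunit that takes part in joining complexes III and IV, stood at 378 and 417 CPM in IPCs and at 286 and 283 CPM in RGCs (0.55 ± 0.11, adjusted p = 0.003). Uqcrfs1, the Rieske iron-sulfur protein of complex III, stood at 137 and 162 CPM and at 105 and 120 CPM (0.48 ± 0.12, adjusted p = 0.00924). For both genes the 2 IPC values lay above the 2 RGC values.

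Others that were higher in IPCs were Ndufs4 (0.44 ± 0.10, adjusted p = 0.00668), the catalytic β subunit Atp5b (0.44 ± 0.11, adjusted p = 0.0113), the rotor shaft gene Atp5c1 (0.34 ± 0.11, adjusted p = 0.0341) and Sdhb (0.29 ± 0.10, adjusted p = 0.0473). Atp5c1 and Sdhb were not called without TMM scaling. In the same comparison 45 of 81 ribosomal protein genes were higher, beside 15.7% of all genes, and 0 lower, beside 19.0%. Their median was 0.35, above that of the members.

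Members called between GABAergic and excitatory neurons were lower in GABAergic neurons, but how many, beside all genes, depended on the fit. Of 79 members tested, 24 were lower, beside 19.4% of all genes, and 0 were higher, beside 19.2%, and 72 of 79 log2 differences were below 0 with a median of -0.23 beside -0.02 for all genes. At an unadjusted p under 0.05 34 members differed, and DESeq2 called 0 higher (13.7% of all genes) and 13 lower (12.3%). Without TMM scaling 1 was higher (22.2%) and 13 lower (15.6%), and with all classes in a single fit 0 were higher (13.9%) and 6 of 80 lower (13.2%). The share of members called lower was 30.4% in the first of these fits, 16.5% by DESeq2 and without TMM scaling, and 7.50% in the single fit, which is below that of all genes. With the library as a block 62 were lower (78.5%, beside 25.4% of all genes) and 2 higher (2.53%, beside 23.6%). With no filter on low counts 44 of 83 were lower (53%, beside 15.6% of all genes) and 0 higher (beside 11.2%). The lower members were spread over complex I (13 of 35), complex II (2 of 4), complex III (2 of 8), complex IV (2 of 15) and complex V (5 of 17).

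Single differences were small. Sdhb stood at 103 and 106 CPM in GABAergic neurons and at 136 and 132 CPM in excitatory neurons (-0.43 ± 0.06, adjusted p = 0.0013). The complex I iron-sulfur subunit Ndufs8 stood at 44.4 and 49.9 CPM and at 58.1 and 62.6 CPM (-0.43 ± 0.08, adjusted p = 0.00471). Ndufb6 (-0.42 ± 0.08, adjusted p = 0.00532) and Ndufc2 (-0.38 ± 0.06, adjusted p = 0.00268) followed, and the smallest called differences were those of Atp5h (-0.24 ± 0.07), Ndufs7 (-0.23 ± 0.08), Ndufa8 (-0.19 ± 0.06) and Atp5g3 (-0.17 ± 0.06), with adjusted p between 0.0239 and 0.0479. Both classes' values stood apart in each of these 8 genes.

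GABAergic cells were also shallower, with median depths of 5321 and 4414 UMIs beside 9010 and 8082 in excitatory neurons. Hemoglobin transcripts, which can reach other cells as free RNA, stood at 3144 and 6876 CPM beside 1964 and 3172 CPM. Within 3000 to 30000 UMIs and under 5% mitochondrial UMIs, 11 of 78 members were lower, beside 16.6% of all genes, and 1 higher, beside 17.2%, with a median of -0.16. At 14.1%, the share of members called lower was then below that of all genes. The part of depth and free RNA in the difference was not tested beyond this.

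Within excitatory neurons, deep-layer and newborn cells differed in few members, and the subunit c genes moved in opposite directions. Of 76 members tested, 1 was higher in deep-layer cells, beside 14.7% of all genes, and 4 lower, beside 11.1%, and the median was 0.00 beside 0.00. With the library as a block 10 were higher (18.8%) and 10 lower (15.5%). Atp5g1 stood at 370 and 334 CPM in deep-layer cells and at 262 and 263 CPM in newborn cells (0.47 ± 0.10, adjusted p = 0.00615). Atp5g2 stood at 274 and 282 CPM and at 350 and 360 CPM (-0.31 ± 0.09, adjusted p = 0.0286). Both pairs of values were clear of each other.

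The subunit c genes encode the same mature protein behind different import sequences, and their mix differed between these classes, as shares without a test. Atp5g2 took 52.7% (51.2 to 54.1) and 54.3% (52.8 to 55.7) of subunit c UMIs in RGCs, 58.9% (56.5 to 61.3) and 59.3% (57.1 to 61.5) in IPCs, 45.5% (44.0 to 47.0) and 45.8% (44.3 to 47.3) in newborn neurons and 32.9% (30.8 to 35.1) and 36.0% (33.7 to 38.5) in deep-layer neurons. Atp5g1 took 30.1% and 27.3% in RGCs, 26.2% and 24.8% in IPCs, 34.0% and 33.5% in newborn and 44.5% and 42.7% in deep-layer neurons. The third gene, Atp5g3, ranged from 14.8% to 22.6% over these 4 classes. The shares compare 3′ tags without a length correction, and reads that match several copies are not counted by the authors' pipeline.

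The other members lower in deep-layer neurons were Cox7a2l, at 196 and 206 CPM beside 290 and 292 CPM in newborn neurons (-0.49 ± 0.09, adjusted p = 0.00311), the complex III core protein Uqcrc1 (-0.40 ± 0.11, adjusted p = 0.0305) and the NADH-binding subunit Ndufv1 (-0.35 ± 0.10, adjusted p = 0.035). Cox7a2l was thus higher in IPCs than in RGCs and lower in deep-layer than in newborn neurons. Of the 13 mitochondrially encoded subunits, 4 were higher in deep-layer neurons by edgeR, beside 14.7% of all genes, and 0 lower, beside 11.1%. All 13 log2 differences lay above 0.

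Cycling and non-cycling RGCs were not told apart by any member. Of 78 tested, 0 were higher, beside 10.5% of all genes, and 0 lower, beside 8.98%, by edgeR, where 9 had an unadjusted p under 0.05, and DESeq2 also called 0 in either direction (5.94% and 3.44% of all genes). The summed levels were 21586 and 20311 CPM in cycling RGCs and 21372 and 19628 CPM in non-cycling RGCs, and they overlapped. With the library as a block, 7 were higher (12.8%) and 1 lower (11.0%), among them Cox7a2, Atp5b and Atp5g2 with log2 differences of 0.36, 0.31 and 0.27. Without the Ttr-rich cells 1 was higher (10.6%) and 0 lower (8.95%).

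**Figure D4:**
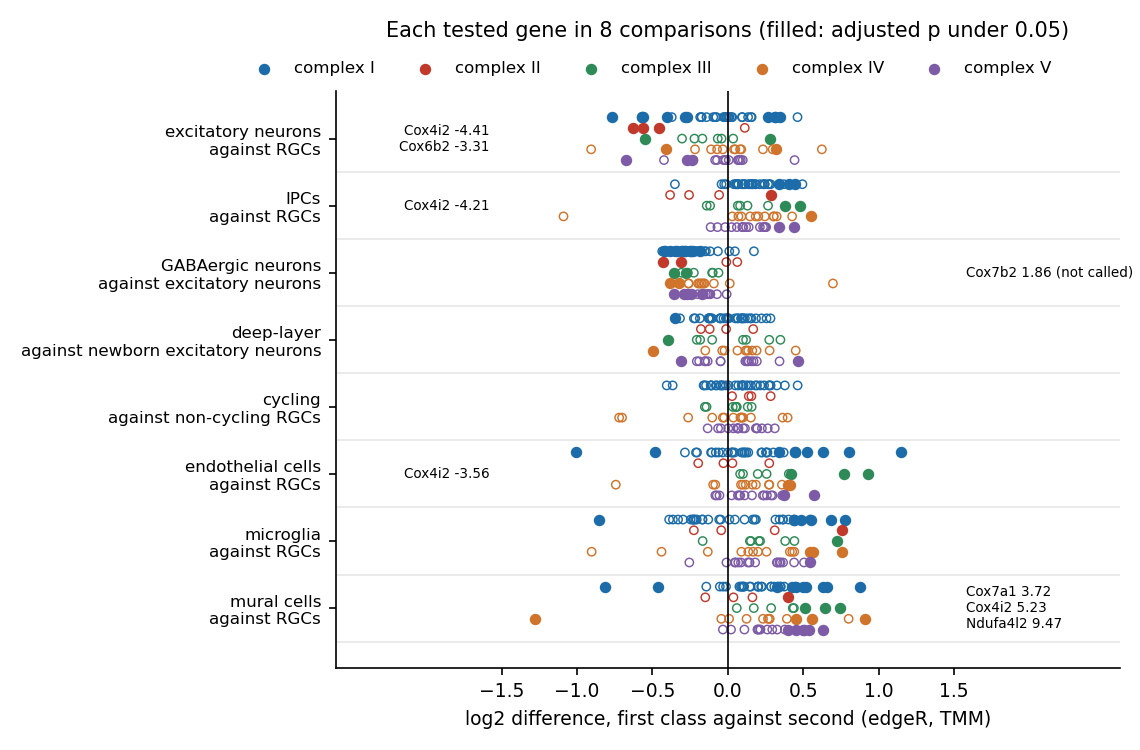
Log2 difference between classes (x axis) of each tested member in 8 comparisons (y axis), colored by complex, with filled points for adjusted p under 0.05 and values beyond ±1.5 written at the edge. Points of GABAergic against excitatory neurons lie mostly left of 0 and those of mural cells against RGCs mostly right of it.

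In endothelial cells against RGCs, members were called less often than all genes in both directions. Of 78 members, 14 were higher, beside 24.5% of all genes, and 3 lower, beside 25.3%, with a median of 0.12 beside -0.04. The 3 include Cox4i2, which passed the filter on low counts only through RGCs. Without TMM scaling, which moved the median of all genes by 0.18, 6 were higher (20.3%) and 4 lower (31.5%) with a median of -0.06. Ndufa8, an accessory complex I subunit with cysteine motifs, stood at 233 and 278 CPM in endothelial cells and at 117 and 144 CPM in RGCs (1.15 ± 0.14, adjusted p = 0.000243). Uqcrb, a small complex III subunit, stood at 403 and 333 CPM and at 236 and 201 CPM (0.93 ± 0.16, adjusted p = 0.00186). Uqcrc1 (0.77 ± 0.13, adjusted p = 0.00146) and Ndufb2 (0.81 ± 0.23, adjusted p = 0.0185) were higher too, and these 4 stayed higher without TMM scaling.

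Ndufc2 stood at 242 and 239 CPM in endothelial cells beside 484 and 614 CPM in RGCs (-1.01 ± 0.16, adjusted p = 0.000927), and Ndufa12 at 157 and 161 CPM beside 256 and 246 CPM (-0.48 ± 0.12, adjusted p = 0.0106). Neither gene's values overlapped. Ndufs3 was called at 0.34 ± 0.12 (adjusted p = 0.0468), a call lost with the library as a block (adjusted p = 0.0545). With Scrublet-marked cells left out, 9 members were higher, beside 24.4% of all genes, and 3 lower, beside 27.2%.

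Microglia against RGCs depended on the scaling. Of 78 members, 12 were higher, beside 24.7% of all genes, and 1 lower, beside 22.0%, with a median of 0.17 beside -0.05. Without TMM scaling, which moved the median of all genes by 0.36, 0 were higher (18.9%) and 17 lower (34.1%) with a median of -0.18. The summed level of ribosomal protein genes in microglia was 1.33 and 1.49 times that of RGCs, and 71 of 81 were called higher. Ndufc2 was lower under both scalings, at 218 and 255 CPM in microglia (-0.85 ± 0.19, adjusted p = 0.00741, and -1.21 without TMM).

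On the TMM scale the members furthest up in microglia were the complex I subunit Ndufv3 (0.78 ± 0.16, adjusted p = 0.00596), Cox4i1 (0.76 ± 0.16, adjusted p = 0.00602), Sdhd (0.76 ± 0.16, adjusted p = 0.00637) and Uqcrb (0.73 ± 0.16, adjusted p = 0.00695), each also above the RGC values as plain CPM, though none was called without TMM scaling. Cox4i1 stood at 1232 and 1313 CPM in microglia and Sdhd at 92.1 and 88.1 CPM, beside 62.7 and 73.7 CPM for Sdhd in RGCs. Called at smaller size were Ndufb7 (0.49 ± 0.14), Ndufs7 (0.44 ± 0.14) and Ndufa6 (0.44 ± 0.14), with adjusted p between 0.0247 and 0.0315. Ndufs7 and Ndufa6 overlapped RGCs as CPM, and the call of Ndufs7 was lost with the library as a block (adjusted p = 0.0509).

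Ndufc2 was the member called most often, lower in 5 of the 8 comparisons. The RGC comparisons share the same RGC sums, which for Ndufc2 were 484 and 614 CPM, and IPCs stood near them at 502 and 625 CPM. The remaining classes but erythroid cells lay between 218 and 407 CPM, so that both progenitor classes stood apart from the 8 others in both libraries, as a description. Uqcrb, Cox4i1 and Ndufb8, the last named after its values were seen, were higher in each of endothelial cells, microglia and mural cells, against the same RGCs.

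Several paralogs of the muscle and germ line were at or near 0. Cox8c had no UMI and Cox8b 1 UMI among 78084067 UMIs of the classed cells, where 3 UMIs are 0.0384 CPM. Cox6a2 had at most 3 UMIs in any class of a library except GABAergic neurons of WT replicate 6, which held 4, and Cox7b2 had at most 9. Cox6a1, the common form, stood between 200 and 398 CPM in all classes but erythroid cells and was lower in GABAergic than in excitatory neurons (-0.38, adjusted p = 0.022). Cox6b1 (329 to 632 CPM), Cox7b (213 to 418 CPM) and Cox7a2 (303 to 554 CPM) were called in none of the 8 comparisons by edgeR without a block.

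Core catalytic subunits were called in some comparisons. Ndufs1, the largest complex I iron-sulfur subunit, passed the test in none of the 8 comparisons, with log2 differences from -0.30 in microglia to 0.37 in IPCs. Atp5a1, the ATP synthase α subunit, was higher in mural cells (0.50, adjusted p = 0.012), as was Atp5b (0.45, adjusted p = 0.017). Ndufv1 was higher in endothelial cells (0.63, adjusted p = 0.0031) and lower in GABAergic than in excitatory neurons (-0.34, adjusted p = 0.019). Ndufs7 was lower in excitatory neurons than in RGCs (-0.27, adjusted p = 0.0072) and higher in mural cells (0.50, adjusted p = 0.0071), and Ndufs8 was lower in excitatory neurons (-0.57, adjusted p = 0.00072).

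Other genes of the pathway are given by their counts. In mural cells against RGCs, 22.1% of all genes tested were higher and 21.6% lower. There 9 of 13 mitochondrially encoded subunits were higher, 4 of 13 citric acid cycle genes and 2 of 8 carrier genes. Of 45 assembly factor genes, 2 were higher and 1 lower. In excitatory neurons against RGCs, 8 of 13 mitochondrially encoded subunits were higher, beside 32.3% of all genes. Assembly factors divided into 12 higher and 11 lower of 45, both below the shares of all genes (32.3% and 32.6%). In GABAergic against excitatory neurons, 15 of 45 assembly factors were lower, beside 19.4% of all genes, and 3 higher, beside 19.2%.

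Among 11 regulators of mitochondrial gene expression, the PGC-1 coactivator genes are named here after their values were seen. Ppargc1a stood at 47.0 and 41.3 CPM in RGCs and at 61.2 and 73.7 CPM in Cajal-Retzius cells. It stood at 5.93 and 5.24 CPM in excitatory neurons and at 6.85 and 5.10 CPM in IPCs, lower than in RGCs in both (adjusted p = 4.86e-07 and 2.2e-05). In mural cells it stood at 0.823 and 1.03 CPM (1 UMI in each library). No test is given there, since Ppargc1a passed the filter only through RGCs. Ppargc1b had 86 and 75 UMIs in mural cells, at 70.7 and 77.0 CPM, and 1 and 2 UMIs in RGCs. These are given with no test, since the gene passed the filter only through mural cells. Fibroblasts followed at 29.0 and 18.8 CPM and microglia at 14.9 and 13.4 CPM.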

How the data were processed

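The authors deposited raw UMI counts per gene and cell of 10x Genomics 3′ libraries, which the submitters' processing notes credit to Cell Ranger 7.0.0 and build mm10. Whether intronic reads were counted is not given in the sources used here. Both WT libraries (14136 and 13046 cells) were used, with 59 barcodes in both, counted as separate cells.

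Cells outside 1500 to 60000 UMIs, and those at 10% or more mitochondrial UMIs, were dropped, which left 8139 and 8209. A cell joined a class when UMIs of at least 40% of that class's markers were found, with a lead of at least 25 points over any other class. Neurons held at most 1 of 12 cycling markers, cycling RGCs at least 4 and non-cycling RGCs at most 1. Cells that met no rule were left out, and doublets were left in, with removal by Scrublet's score (0.8% per 1000 cells called) as an alternative. The members, markers and gene lists were chosen with earlier results of these data known.

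Counts were summed per class and library with at least 15 cells and tested with edgeR 4.0.16 (R 4.3.3; quasi-likelihood, TMM, filterByExpr, Benjamini-Hochberg over all genes tested), after a check on simulated data. DESeq2 1.42.0 was an alternative. Sums used Python 3.11.15, numpy 2.4.6, pandas 2.3.3, scipy 1.17.1 and scanpy 1.11.5, and figures matplotlib 3.10.9. Named genes were the 4 highest and 4 lowest log2 differences among the called members of a comparison with the same direction in both libraries, the subunit families with paralogs, the complex II genes, 8 catalytic core subunits, and those said to be named after their values were seen. The values of 1 gene that met this rule are not reported here. Both classes of a comparison came from the same libraries, whose deviations correlated at 0.102 to 0.284 in the 8 comparisons, so the library was also fitted as a block. Intervals are 95% Wilson or exact and cover counting error only. Other alternatives were a stricter gate, a stricter cell filter, no TMM, no filter on low counts, all classes in a single fit, mitochondrial and hemoglobin genes left out, and, added after the data were seen, RGCs without Ttr-rich cells.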

Additional observations from a re-analysis of the deposited data

How the results depend on the processing

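With 2 libraries, counts of calls move with each choice, and no direction of a named gene was reversed. Of 156 counts of called members, 101 lay within 1.5 times the value given and 55 did not, and of 77 summed levels 69 moved by less than 1 SD. For each of the 11 classes, 2 of the 77 are the level of 1 library alone. With 2 libraries such a value always lies within 1 SD of the mean, so it could not count as moved. Leaving out Ttr-rich cells changed only the summed level of RGCs among the 11 classes. Of 623 alternative values for the genes named by size, 522 were counted as the same and 101 lost the call. The 522 include 53 values without WT replicate 1 and 53 without WT replicate 6, which have no adjusted p. Those were counted by direction alone, which the choice of the named genes had set in advance. The causes of these moves were not tested. The counts below are read against all genes tested, of which the share called in 1 direction ran over the comparisons from 8.98% to 32.6% in the fits of the report, 11.0% to 34.6% with the block, 9.67% to 39.3% without TMM, 6.48% to 23.3% with no filter, 3.44% to 28.3% by DESeq2, 7.53% to 30.5% in the single fit, 8.84% to 32.7% with 1 more marker, 9.02% to 32.5% with 3000 to 30000 UMIs, 10.5% to 32.8% without Scrublet-marked cells, 9.03% to 32.6% without mitochondrial and hemoglobin genes and 8.95% to 32.6% without Ttr-rich cells.

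With the library as a block, higher and lower members were 10 and 27 in excitatory neurons against RGCs, 31 and 4 in IPCs, 2 and 62 in GABAergic against excitatory neurons, 10 and 10 in deep-layer against newborn neurons, and 7 and 1 in cycling against non-cycling RGCs. Without TMM they were 0 and 30 in excitatory neurons, 0 and 17 in microglia, 1 and 13 in GABAergic neurons, with 3 lower in IPCs and 6 higher in endothelial cells. With no filter on low counts they were 10 and 11 in excitatory neurons and 6 and 3 in microglia, with 2 lower in IPCs, 44 lower in GABAergic neurons, 4 higher in cycling RGCs and 6 higher in endothelial cells. By DESeq2, 4 were higher in IPCs, 13 lower in GABAergic neurons, 1 lower in deep-layer neurons, and 8 higher and 1 lower in endothelial cells. With all classes in a single fit, 2 were higher and 2 lower in IPCs, 6 lower in GABAergic neurons, 0 higher and 1 lower in deep-layer neurons, and 3 lower in microglia.

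With 1 more marker required, 2 were lower in IPCs, and 2 higher and 1 lower in deep-layer neurons. With 3000 to 30000 UMIs, 3 were lower in IPCs, 1 higher and 11 lower in GABAergic neurons, 2 higher and 1 lower in deep-layer neurons, and 6 higher and 4 lower in microglia, and summed levels were 24730 CPM in Cajal-Retzius cells and 18786 CPM in microglia. Without Scrublet-marked cells, 1 was higher in GABAergic neurons, 2 in deep-layer neurons, 2 in cycling RGCs, 9 in endothelial cells and 46 in mural cells, and 2 were lower in microglia, with summed levels of 19434 CPM in microglia, 27521 CPM in mural cells and 28939 CPM in fibroblasts. Without mitochondrial and hemoglobin genes, 1 was higher in GABAergic neurons, and summed levels were 23561 CPM in Cajal-Retzius cells, 19993 CPM in microglia and 25762 CPM in erythroid cells. Without Ttr-rich cells, a choice made after seeing the data, 1 was higher in cycling RGCs.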
